A study of Triticum aestivum with 15 samples.

Results

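VRN1 is a gene of the floral transition in bread wheat (Triticum aestivum), and hexaploid wheat carries a copy of it on each of its subgenomes. The 3 copies were taken by their identifiers from the 269207 gene identifiers of the deposited count table: VRN-A1 is TraesCS5A02G391700 on chromosome 5A, VRN-B1 is TraesCS5B02G396600 on chromosome 5B and VRN-D1 is TraesCS5D02G401500 on chromosome 5D. All 3 passed the filter on low counts in every fit. The rule that chose them names identifiers and uses no measured value, though earlier results of these data were known at the time.

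VRN1 encodes a MADS-box transcription factor of the APETALA1/FRUITFULL clade that moves the shoot apex from making leaves to making the spike. In winter wheat it is switched on by long cold, whereas spring alleles, which carry changes in the promoter or the first intron, need no cold. In leaves its transcript is known to climb as the plant ages, and it favours FT1 (VRN3), the mobile flowering signal, and holds down the repressor VRN2.

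The plants were wild-type cultivar Fielder, a spring wheat, grown hydroponically with 50 µM iron for 12 days and then with 0 µM iron for up to 11 days. Messenger RNA was sequenced in 15 libraries, 3 per group: first leaf at the start of iron withdrawal (day 0), first leaf after 1 day, leaf 3 after 7 days (day 7), leaves 3 to 5 together on day 11 (upper leaves) and roots on day 11. Per the labels 3 plants were used, and their numbers recur in every group, so libraries are named by plant 1, 2 and 3 here. Days 7 and 11 differ from day 0 in age, leaf position and iron supply at once, no iron-fed library of a later day was analysed here, and these 3 factors cannot be told apart.

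Library totals ran from 15434838 to 25552816 counts. No list of leaf or root markers could be applied, because no source used here pairs the identifiers of the table with names; on the first principal component of all 15 libraries (60.9% of the variance) the roots scored 594.4 to 596.6 and every leaf library below 0. Along the first component of the 12 leaf libraries (51.7% of the variance), plant 1 on day 0 scored -86.3 beside -221 and -222.5 for the other two of that day, and plant 3 on day 7 scored 45.7 beside 167.1 and 198.6. Values without these 2 libraries are given beside the results they bear on. Levels are in CPM, a count relative to the size of its library, scaled by the TMM method over all 15 libraries, and in whole tissue a lower level from fewer expressing cells cannot be told apart from less RNA per cell.

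Summed over its copies, VRN1 was expressed in every library and stood higher in the later leaves than in the first leaf. The summed level was 54.8, 46.7 and 23.0 CPM in plants 1, 2 and 3 on day 0 and 51.3, 39.6 and 21.0 CPM on day 1. On day 7 it stood at 93.1, 84.9 and 62.1 CPM, and at 107.5, 105.4 and 57.4 CPM in the upper leaves of day 11. In roots of day 11 the 3 plants had 98.3, 91.3 and 41.9 CPM. Plant 1 was highest and plant 3 lowest in each of the 5 groups.

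Over the leaf positions, the summed level was higher in the 6 libraries of the third and upper leaves than in the 6 first-leaf libraries. The difference of the mean log2 levels was 1.17, or 2.24-fold (two-sided exact permutation test, p = 0.0022, the smallest this design can give). Without both libraries that stood apart the difference was 1.36 (exact permutation p = 0.0079). The log2 difference was positive in all 3 plants, at 0.92, 1.14 and 1.44 in plants 1, 2 and 3. The libraries come from 3 plants and are not independent, and an exact sign-flip test over the plants gave p = 0.25, which is the smallest it can give. From low to high the group means of the summed level ran 37.3 CPM ± 15.3 on day 1, 41.5 ± 16.5 on day 0, 77.2 ± 30.7 in roots, 80.1 ± 16.0 on day 7 and 90.1 ± 28.3 on day 11 (SD, n = 3 each). At each step of this order the values of the 3 plants in the neighbouring groups overlapped. The size of the leaf difference and the place of the roots depended on the scaling. By library totals alone, the log2 difference of later from first leaves was 1.56. The roots then averaged 102.3 CPM, above the 78.1 CPM of day 7.

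**Figure D1:**
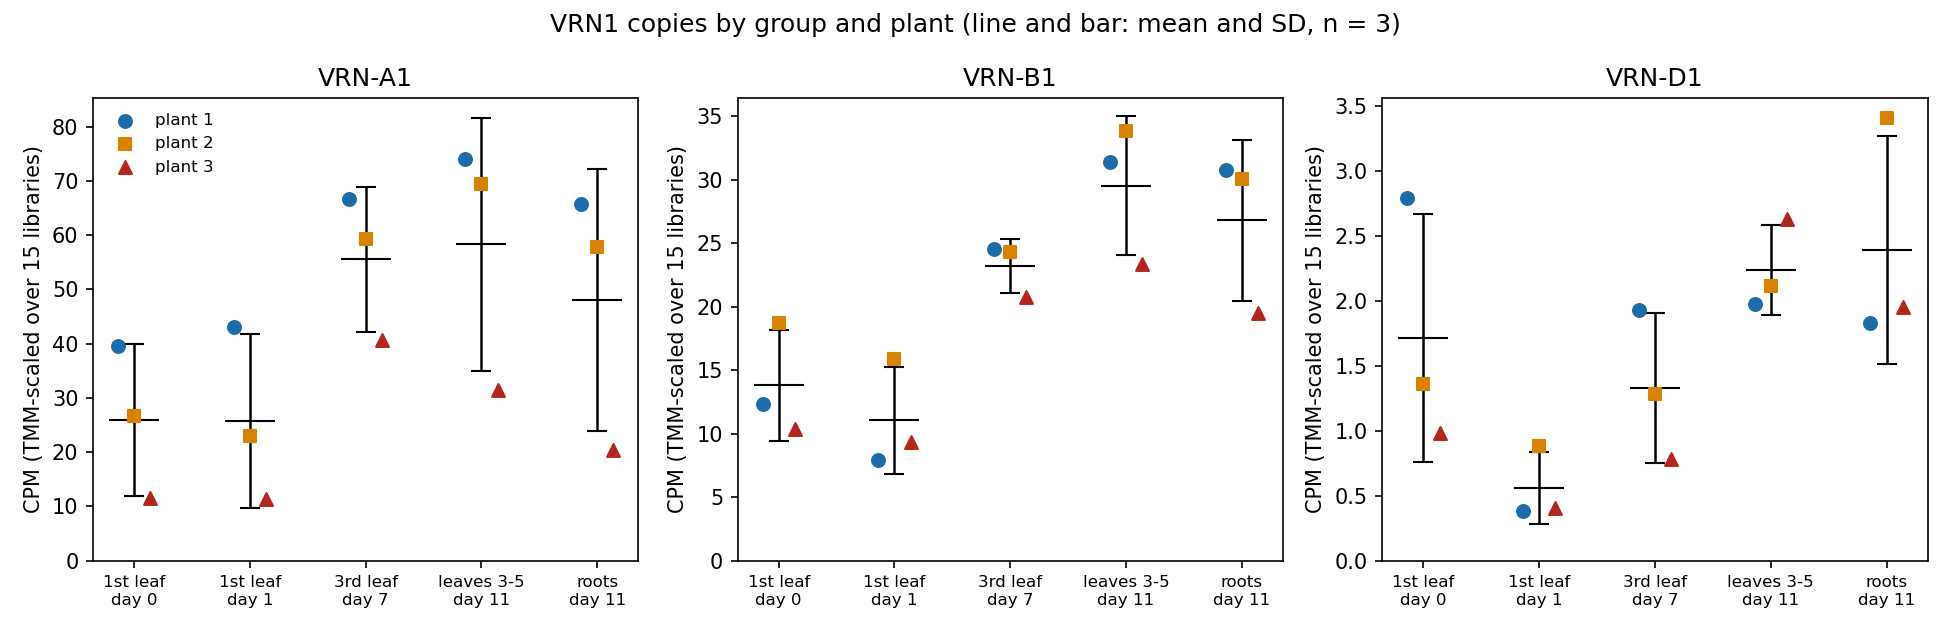
CPM of each VRN1 copy (TMM-scaled over 15 libraries, linear axis from 0) by group, with a symbol per plant and a line and bar for the mean and SD (n = 3). VRN-A1 is lowest in plant 3 in all 5 groups. VRN-B1 is separated between the first leaf and the later leaves, with 7.91 to 18.7 CPM against 20.8 to 33.8 CPM. That separation is a description only, since its share over all genes was not counted.

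VRN-B1 stood at 12.4, 18.7 and 10.4 CPM in plants 1, 2 and 3 on day 0 and 7.91, 15.9 and 9.37 CPM on day 1. On day 7 it reached 24.6, 24.3 and 20.8 CPM, and on day 11 31.4, 33.8 and 23.4 CPM. Every library of the third and upper leaves stood above every first-leaf library. The share of all genes that separate in this way was not counted, so the separation is given as a description.

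In tests across all genes (edgeR's quasi-likelihood test on the 12 leaf libraries, with a call at a p under 0.05 after Benjamini-Hochberg adjustment), VRN-B1 was the only copy called in the leaf comparisons when the group was the only term. It rose 2.10-fold from day 1 to day 7 (log2 fold change 1.07, SE 0.28, edgeR adjusted p = 0.013, higher in 3 of 3 plants), in a comparison where 35.5% of all genes tested were called and 19.7% were called higher. It rose 2.14-fold from day 0 to day 11 (log2 fold change 1.10, SE 0.28, edgeR adjusted p = 0.0086, 3 of 3 plants), where 44.3% of all genes were called and 21.6% were called higher. The median log2 fold change of the 3 copies was 1.113 and 1.10 in these comparisons, beside 0.06 and 0.12 over all genes tested. Rises of this size were common. From day 1 to day 7, 18.9%, 19.5% and 17.1% of all genes tested rose at least as much as VRN-A1, VRN-B1 and VRN-D1. From day 0 to day 11 the shares were 20.4%, 21.7% and 41.1%. The first of these calls ended without plant 1 (edgeR adjusted p = 0.17) and without plant 3 (0.058), and the second without plant 1 (0.082). Both held without either of the libraries that stood apart.

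From day 0 to day 7 no copy was called by edgeR with the group as the only term, beside 28.2% of all genes in either direction. At an unadjusted p under 0.05 there was 1 copy, VRN-B1, and DESeq2 called that 1 copy, beside 17.5% of all genes called higher by it. VRN-B1 stood 1.68-fold higher (log2 fold change 0.74, SE 0.28, edgeR adjusted p = 0.067), and the plants gave ratios of 1.99, 1.30 and 2.00. With the plant as a block, which called 13.1% of all genes higher, its edgeR adjusted p was 0.019, and with the block and without both libraries that stood apart it was 0.11. The median log2 fold change was 0.74 over the copies and 0.09 over all genes tested. Of all genes tested, 17.7% rose at least as much as VRN-A1 and 24.7% as much as VRN-B1. VRN-D1 was at 0.77 times its day 0 level (log2 fold change -0.37, SE 0.47, edgeR adjusted p = 0.59). A fall at least as large was seen in 29.1% of all genes tested. Its direction was not stable: the log2 fold change of VRN-D1 was 0.18 without the day 0 library of plant 1. With the block and without both libraries that stood apart it was 0.49.

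VRN-A1 had about the same size of difference as VRN-B1 between first and later leaves, with a much wider spread between plants. It stood at 39.6, 26.6 and 11.6 CPM in plants 1, 2 and 3 on day 0 and at 43.1, 22.9 and 11.3 CPM on day 1. On day 7 it was at 66.6, 59.4 and 40.6 CPM, and on day 11 at 74.1, 69.4 and 31.5 CPM. Within each plant the later leaves were above the first leaf, but plant 1 on day 0 and day 1 exceeded plant 3 on day 11.

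The mean of VRN-A1 was 2.25 times higher on day 11 than on day 0 (log2 fold change 1.17, SE 0.53), which did not pass the test with the group as the only term (edgeR adjusted p = 0.094). With the plant as a block the difference passed (log2 fold change 1.24, edgeR adjusted p = 0.0025), in a fit that called 20.8% of all genes higher. It also passed with the group alone when plant 3 (edgeR adjusted p = 0.036) or the day 0 library of plant 1 (0.049) was left out, and by DESeq2 (adjusted p = 0.049), which called 24.4% of all genes higher. From day 0 to day 7 and from day 1 to day 7 it passed only in the fits with the block, with or without both libraries that stood apart. These differences were 2.14-fold from day 0 to day 7 (edgeR adjusted p = 0.14, with the block 0.0058) and 2.16-fold from day 1 to day 7 (edgeR adjusted p = 0.12, with the block 0.0037), where the blocked fit called 13.1% and 17.7% of all genes higher. The biological coefficient of variation, the spread between libraries of a group that counting does not give, was 0.447 for VRN-A1 in the leaf fit, 0.249 for VRN-B1 and 0.343 in common over all genes. Without both libraries that stood apart, the blocked values for VRN-A1 were 0.002 for day 11 against day 0, 0.015 for day 7 against day 0 and 0.0068 for day 7 against day 1. Within the plants the ratio of day 11 to day 0 was 1.87, 2.61 and 2.71 in plants 1, 2 and 3.

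VRN-D1 was counted at a low level throughout, with 6 to 109 reads per library, so its values carry a large counting error. On day 0 it had 49, 22 and 12 counts in plants 1, 2 and 3, and on day 1 it had 6, 15 and 8. The exact Poisson 95% interval of the 6 counts in plant 1 was 2.202 to 13.06, below that of the 49 counts a day earlier (36.3 to 64.8). In the other plants the intervals of day 0 and day 1 overlapped. They were 13.79 to 33.31 and 8.395 to 24.74 in plant 2, and 6.201 to 20.96 and 3.454 to 15.76 in plant 3. These intervals cover counting error only. Counts were 44, 26 and 16 on day 7 and 48, 52 and 61 on day 11.

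In CPM the day 0 libraries of VRN-D1 (0.981 to 2.79) did not overlap those of day 1 (0.383 to 0.878). How many of all genes separate in this way was not counted. Between these days 1.29% of all genes were called. VRN-D1 was at 0.325 times its day 0 level on day 1 (log2 fold change -1.62, SE 0.51), lower in 3 of 3 plants, and was not called after adjustment (edgeR adjusted p = 0.13, unadjusted p = 0.0086). Over the alternatives its adjusted p ran from 0.055 to 0.57. Without plant 1 the log2 fold change was -0.87, and without the day 0 library of plant 1 alone it was -1.07. From day 1 to day 7 it was 2.38-fold higher (edgeR adjusted p = 0.076, or 0.047 without the day 7 library of plant 3) and from day 0 to day 11 1.30-fold higher (0.54), with plant 1 lower and plants 2 and 3 higher on day 11.

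Between the 2 samplings of the first leaf, 1 day without iron apart, no copy was called. By edgeR there were 0 of 3 copies, with 1 at an unadjusted p under 0.05 (VRN-D1), and DESeq2 called 0. For VRN-A1 the means of day 0 and day 1 were 25.9 CPM ± 14.03 and 25.7 CPM ± 16.1, beside 13.8 CPM ± 4.36 and 11.05 CPM ± 4.23 for VRN-B1 (SD, n = 3). VRN-B1 was lower on day 1 in 3 of 3 plants (log2 fold change -0.33, SE 0.28, edgeR adjusted p = 0.58). This is the only comparison that keeps the leaf position the same.

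From the third leaf of day 7 to the upper leaves of day 11, no copy was called by edgeR, where 21.9% of all genes were called in either direction. No copy had an unadjusted p under 0.05 (0 of 3), and DESeq2 called 0. VRN-B1 was 1.28 times higher (log2 fold change 0.35, SE 0.27, edgeR adjusted p = 0.40) and higher in 3 of 3 plants. VRN-D1 was 1.68 times higher (log2 fold change 0.75, SE 0.47, edgeR adjusted p = 0.29), its 2 groups of CPM values did not overlap, and all 3 plants were higher. The share of all genes without such an overlap was not counted. For VRN-A1 plants 1 and 2 gave ratios of 1.112 and 1.17 and plant 3 gave 0.775.

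**Figure D2:**
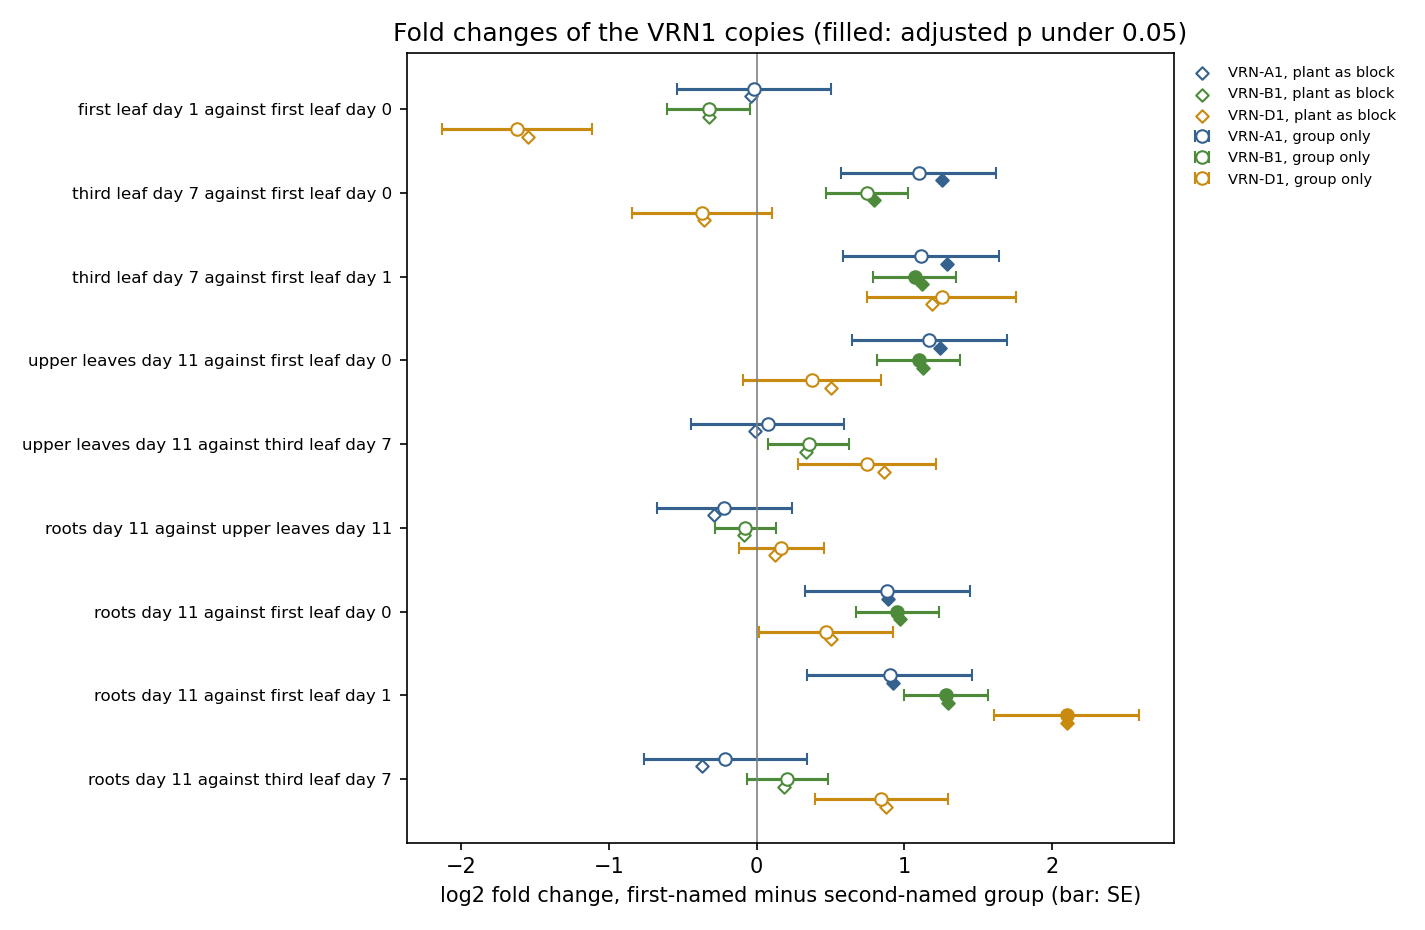
Log2 fold changes of the 3 copies in 9 comparisons, first-named minus second-named group. Circles with bars are edgeR values and SE with the group as the only term, diamonds the values with the plant as a block, and filled symbols mark an adjusted p under 0.05. VRN-A1 is filled only with the block, and in the leaf comparisons its SE is 0.52 to 0.53 beside 0.27 to 0.28 for VRN-B1.

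All 3 copies were also counted in roots, at levels that overlapped those of leaves of the same day. VRN-A1 was at 65.7, 57.8 and 20.5 CPM in the roots of plants 1, 2 and 3, VRN-B1 at 30.8, 30.1 and 19.5 CPM and VRN-D1 at 1.83, 3.40 and 1.95 CPM. The root and upper-leaf values overlapped for each copy. In the fit of the 6 libraries of day 11, 68.4% of all genes were called, and edgeR called 0 of the 3 copies, with 0 at an unadjusted p under 0.05 and 0 by DESeq2.

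The root to leaf differences were small beside their errors. The log2 fold change was -0.22 (SE 0.46) for VRN-A1, -0.08 (SE 0.21) for VRN-B1 and 0.17 (SE 0.29) for VRN-D1, with edgeR adjusted p-values of 0.69, 0.75 and 0.63. VRN-A1 was lower in the roots of 3 of 3 plants. The direction for VRN-B1 depended on the scaling: by library totals alone it averaged 35.5 CPM in roots and 34.6 CPM in upper leaves. With the plant as a block, no copy was called either.

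Against the first leaves, the roots had higher VRN-B1 in the fit of all 15 libraries. It was 1.94-fold higher than on day 0 (log2 fold change 0.95, SE 0.28, edgeR adjusted p = 0.0098), where 63.2% of all genes were called and 33.8% were higher, and 2.43-fold higher than on day 1 (1.28, SE 0.28, edgeR adjusted p = 0.0016), where 62.4% were called and 34.4% were higher. Both calls ended without plant 1 (edgeR adjusted p = 0.12 and 0.059). Without the day 0 library of plant 1, the difference from day 0 was still called for VRN-B1 (0.036) and not for VRN-A1 (0.088), and the log2 fold change of VRN-D1 was 1.02 in place of 0.47 (0.081). VRN-D1 was 4.28-fold higher in roots than in the first leaf of day 1 (log2 fold change 2.10, SE 0.49, edgeR adjusted p = 0.0024), with within-plant ratios of 4.77, 3.88 and 4.78. These root folds depend on the scaling: by library totals alone, the ratio of means for VRN-B1 was 3.06 against day 0 and 4.10 against day 1, and for VRN-D1 against day 1 it was 7.31.

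The VRN-D1 difference from day 1 passed in all 12 alternative analyses. VRN-A1 was 1.84-fold higher in roots than on day 0 (edgeR adjusted p = 0.18) and 1.87-fold higher than on day 1 (0.18), and with the plant as a block both passed (0.0054 and 0.0043), in fits that called 31.3% and 32% of all genes higher. Without plant 3 both passed with the group alone (edgeR adjusted p = 0.028 and 0.025). Tissue, age and iron supply differ together here. Against the third leaf of day 7, 59.4% of all genes were called and no copy was, with 0 of 3 at an unadjusted p under 0.05 and 0 by DESeq2.

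The balance of the copies is given as the share of VRN1 counts, not per length, because no gene length was matched to the identifiers; a share therefore cannot rank the copies by transcript number, but changes in it between libraries can be read. VRN-A1 took 59.9% ± 11.2 of VRN1 counts on day 0, 65.0% ± 16.4 on day 1, 68.9% ± 3.22 on day 7, 63.2% ± 7.45 on day 11 and 59.6% ± 9.56 in roots (SD, n = 3). VRN-B1 took 35.96% ± 11.9 on day 0, 33.3% ± 15.7 on day 1, 29.46% ± 3.59 on day 7, 34.0% ± 5.94 on day 11 and 36.95% ± 8.37 in roots. VRN-D1 took 4.09% ± 1.10 on day 0, 1.63% ± 0.78 on day 1, 1.61% ± 0.42 on day 7, 2.81% ± 1.54 on day 11 and 3.41% ± 1.42 in roots.

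Reads that fit more than one of these near-identical copies may have been lost or moved between them, and how they were treated is not stated in the labels. Where Fielder carries other bases than the reference, reads could be lost in the same way.

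With days 0 and 1 pooled and days 7 and 11 pooled, no ratio between copies passed the test of later against first leaves. The log2 ratio of VRN-A1 to VRN-B1 counts was 1.07 ± 0.36 in the 6 later-leaf libraries and 0.93 ± 0.92 in the 6 first-leaf libraries (SD, n = 6 each; two-sided exact permutation test, p = 0.74, adjusted over the 3 ratios 0.74). For VRN-A1 to VRN-D1 it was 5.01 ± 0.75 and 4.61 ± 1.13 (exact permutation p = 0.48, adjusted 0.74), and for VRN-B1 to VRN-D1 3.95 ± 0.52 and 3.68 ± 0.85 (exact permutation p = 0.56, adjusted 0.74; n = 6 each). Both sides hold libraries of the same 3 plants, which are not independent. An exact sign-flip test over the plants, which cannot give a p below 0.25, passed no ratio either. Within plants, the VRN-A1 to VRN-B1 ratio changed by -0.72, 0.65 and 0.49 on the log2 scale in plants 1, 2 and 3. Plant 1 had the opposite sign to the other two. The VRN-B1 to VRN-D1 ratio changed by 0.62, 0.16 and 0.02 and was higher in 3 of 3 plants. Without both libraries that stood apart, the 3 differences were 0.31, 0.12 and -0.19, in the same order of ratios.

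By single day, the log2 ratio of VRN-A1 to VRN-D1 was 3.82, 4.26 and 3.51 in plants 1, 2 and 3 on day 0 and 6.70, 4.66 and 4.70 on day 1. It was 5.10, 5.51 and 5.66 on day 7 and 5.22, 5.03 and 3.57 on day 11. The values of day 0 lay below all those of day 1 and of day 7, and they overlapped those of day 11. These single days were looked at after their values were known and are given without a test.

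Between the upper leaves and the roots of day 11, the same ratios differed by 0.20, 0.40 and 0.20 on the log2 scale (exact permutation p = 0.60, 0.60 and 0.90, n = 3 each; the smallest p that 3 against 3 allows is 0.10).

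**Figure D3:**
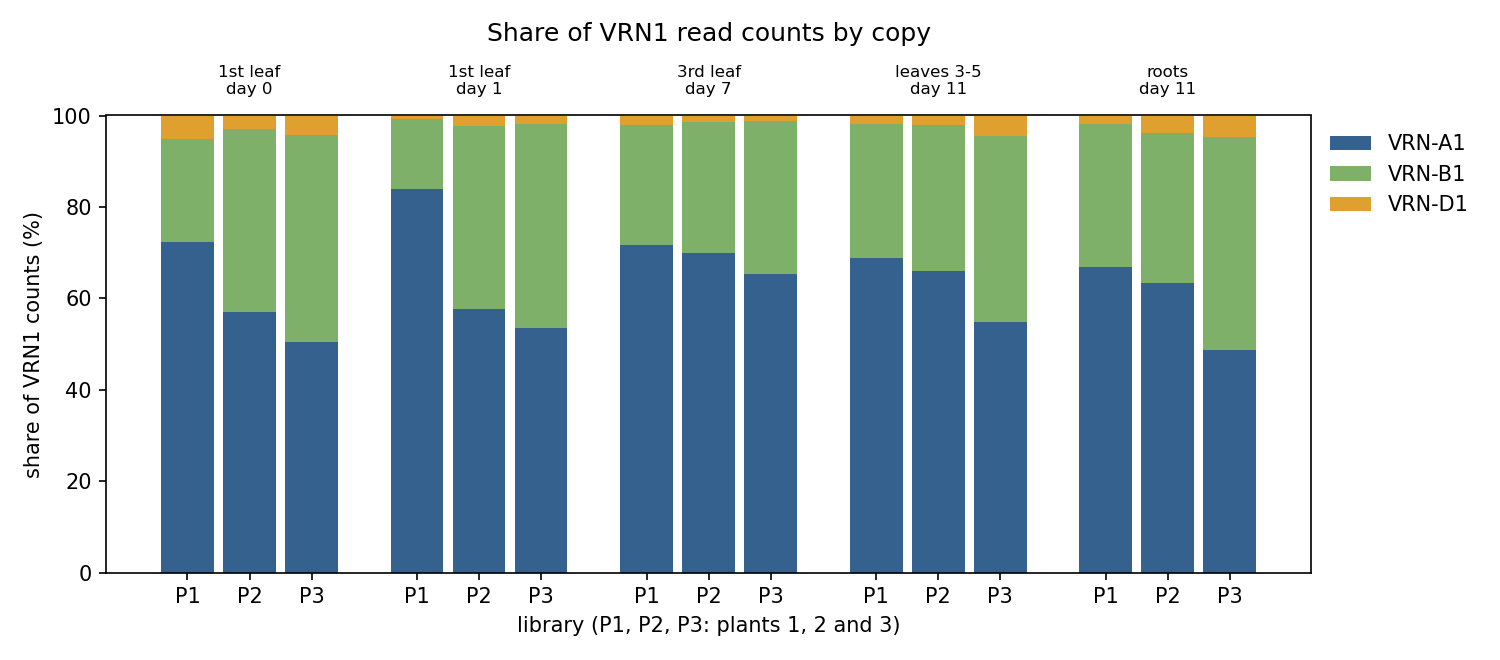
Share of VRN1 read counts from VRN-A1, VRN-B1 and VRN-D1 in each of the 15 libraries, in percent, grouped by sample group with plants 1, 2 and 3 (P1, P2, P3) from left to right. The VRN-A1 share is highest in plant 1 and lowest in plant 3 in every group, with a maximum of 83.9% (day 1, plant 1) and a minimum of 48.8% (roots, plant 3).

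VRN1 levels also differed between plants. Plant 3 had the lowest VRN-A1 level in 5 of 5 groups and plant 1 the highest in 5 of 5. The VRN-A1 level of plant 3 was 0.350 times the mean of the other two on day 0, 0.342 times on day 1, 0.645 times on day 7, 0.438 times on day 11 and 0.331 times in roots. Plant 3 was the lowest for VRN-B1 in 4 of 5 groups, at 0.642 to 0.850 times the others over all 5, and for VRN-D1 in 2 of 5 groups. These comparisons between plants were picked out after the values had been seen, so they are given without a test.

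The plant order was also present in the ratio of VRN-A1 to VRN-B1 counts, which needs no scaling between libraries. As it holds the same VRN-A1 counts, it is not separate evidence of the order. The ratio was 2.13 to 5.43 in the 5 libraries of plant 1, 1.42 to 2.44 in those of plant 2 and 1.05 to 1.95 in those of plant 3, and plants 1, 2 and 3 came in this order in 5 of 5 groups. On day 0 VRN-A1 gave 72.4% of VRN1 counts in plant 1 (Wilson 95% interval 69.4% to 75.1%) and 50.5% in plant 3 (44.7% to 56.3%). In roots the shares were 66.8% (65.0% to 68.6%) and 48.8% (46.2% to 51.4%). The intervals of the pair did not meet in either group, and they cover counting error only. Plants 1 and 3 were paired as the highest and lowest after the values had been seen.

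**Figure D4:**
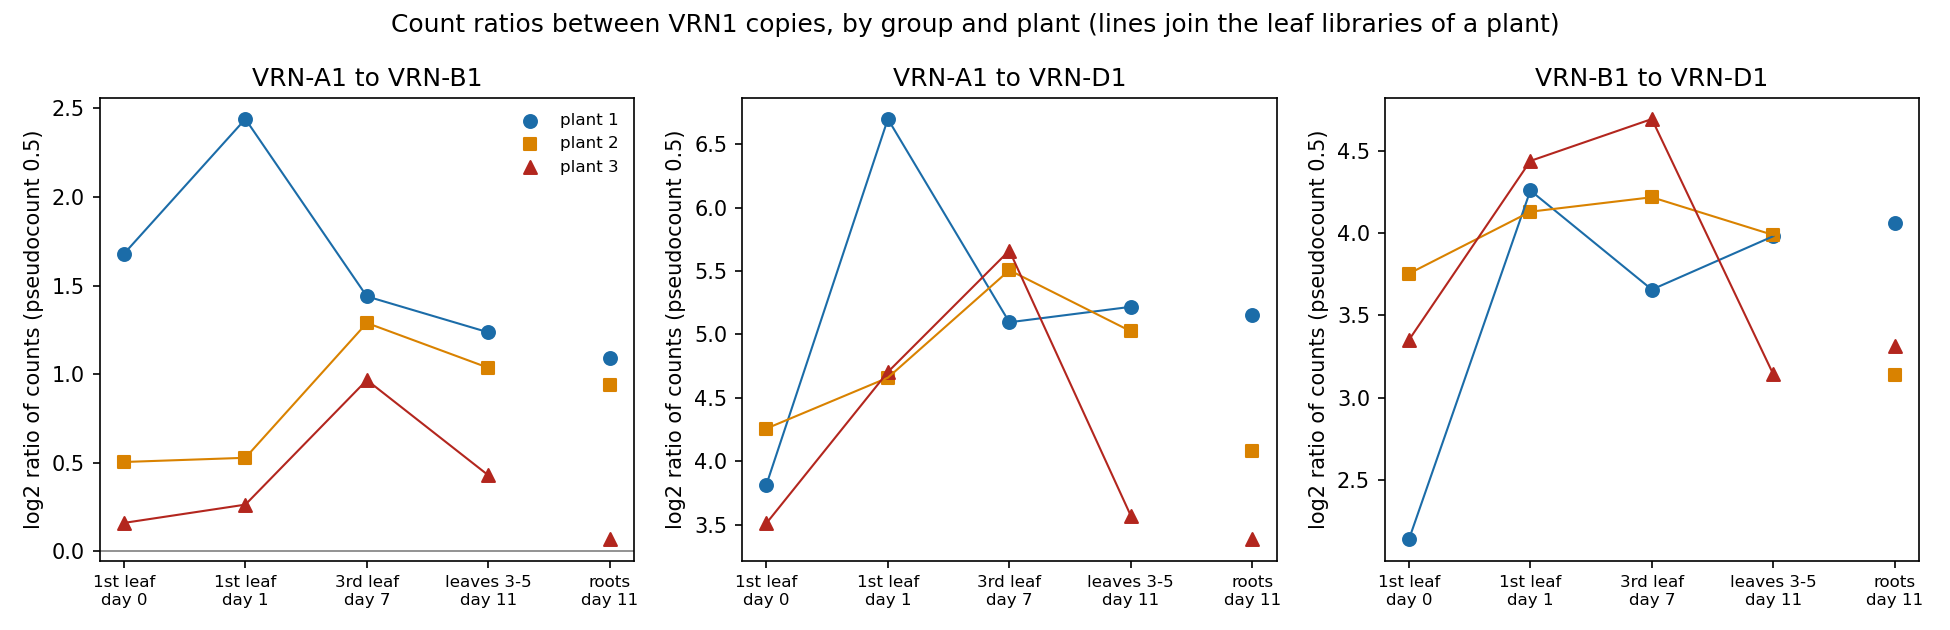
Log2 ratio of counts between pairs of VRN1 copies (pseudocount 0.5) by group, with lines joining the leaf libraries of each plant. For VRN-A1 to VRN-B1 the 3 plants keep the same order in all 5 groups; for the ratios to VRN-D1, which rest on 6 to 109 counts of that copy, the lines cross.

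Of the 72519 genes tested over the 15 libraries, 283 (0.39%) were lowest in plant 3 in all 5 groups, 765 (1.05%) were lowest in any 1 plant in all 5, and 53 (0.0731%) had 1 strict order of the plants in all 5. The shares that a random order of the plants would give were not worked out, so small shares here do not mark an order as unusual. Of those 283 genes, 18 (6.36%) were on chromosome 5A, which held 5.21% of all genes tested. The 12 high-confidence models nearest to the copies in identifier order, 2 on each side of each, were looked at as context. On the A side, TraesCS5A02G391600, the model before VRN-A1, was lowest in plant 3 in 0 of 5 groups, TraesCS5A02G391500 in 3 of 5 and TraesCS5A02G391900 in 4 of 5. How many of all genes were lowest in plant 3 in 3 or in 4 groups was not counted.

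Of the 12 neighbouring models, 8 were tested in the leaf fit, and from day 0 to day 11 edgeR called 1, which was lower (adjusted p under 0.05), beside 44.3% of all genes tested, with a median log2 fold change of 0.12 over the 8, beside 0.12 over all genes tested. From day 1 to day 7, 5 of the 8 were called, 2 higher and 3 lower, beside 35.5% of all genes tested. The model next after each copy was barely counted, with 35, 14 and 13 reads in all 15 libraries together for TraesCS5A02G391800, TraesCS5B02G396700 and TraesCS5D02G401600.

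Across the 12 leaf libraries, Pearson's r of log2 CPM was 0.697 between VRN-A1 and VRN-B1 (Spearman's rho 0.741), 0.678 between VRN-B1 and VRN-D1 (0.594) and 0.50 between VRN-A1 and VRN-D1 (0.371). These values describe 12 libraries that share 3 plants. Of the other 62840 genes tested, VRN-B1 ranked 5598th in likeness to VRN-A1, and VRN-A1 ranked 9795th in likeness to VRN-B1.

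The 5 genes most like the summed VRN1 level over the 12 leaf libraries, by Pearson's r of log2 CPM among 62838 genes, were TraesCS1D02G013800 (r = 0.968), TraesCS5A02G369700 (0.952), TraesCS2A02G418300 (0.9503), TraesCS4D02G045500 (0.948) and TraesCS6B02G245900 (0.948). The table does not pair these identifiers with names. By Spearman's rho, or with the roots included, 0 of the 5 stayed among the 5 most alike, so the choice is loose. In plants 1, 2 and 3 TraesCS1D02G013800 stood at 2.22, 0.804 and 0 CPM on day 0 and at 8.97, 9.31 and 4.13 CPM on day 7. TraesCS2A02G418300 stood at 2.62, 2.53 and 0 CPM on day 0 and at 17.5, 18.1 and 11.2 CPM on day 11. A count of 0 in plant 3 on day 0 allows up to 0.194 CPM of its library total.

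In roots TraesCS1D02G013800 had 0 counts in all 3 root libraries, which allows up to 0.0433 CPM over the group, whereas TraesCS2A02G418300 was at 35.6 CPM ± 4.13 in roots (SD, n = 3) and 15.6 CPM ± 3.83 in upper leaves (edgeR log2 fold change 1.25, SE 0.19, adjusted p = 0.00057). TraesCS4D02G045500 and TraesCS6B02G245900 stood at 14.7 CPM ± 2.22 and 13.2 CPM ± 1.93 on day 0 and at 17.3 CPM ± 0.83 and 17.9 CPM ± 1.27 on day 11 (SD, n = 3 each). The log2 fold changes were 0.24 for TraesCS4D02G045500 and 0.43 for TraesCS6B02G245900. The genes were picked for likeness to VRN1 in the same leaf libraries. A test between leaf days cannot be separate evidence for them, and none is given.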

How the data were processed

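Leaf and root mRNA of 3 Fielder plants was sequenced with a stranded, paired-end protocol, per the labels. The deposited file holds unnormalised read counts, which the authors obtained with featureCounts 2.0.3, per the labels. The submitters' processing notes also list FastQC 0.74, MultiQC 1.11, Trim Galore 0.6.7, HISAT2 2.2.1 and StringTie 2.2.3. Not given in the sources used here are the build and annotation used, whether counting used strand, the treatment of multiply mapping reads and the batches of libraries. The names VRN-A1, VRN-B1 and VRN-D1 belong to the rule that chose the members. As 0 of the 3 identifiers were found among the 155467 genes of the available name table, a list of flowering genes and one of tissue markers could not be applied.

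The test was edgeR 4.0.16 under R 4.3.3 (glmQLFit, glmQLFTest, TMM, filterByExpr, group as the only term), with adjusted p by Benjamini-Hochberg over all genes: 62841 in the 12 leaf libraries, 67922 in the 6 of day 11 and 72519 in all 15. The steps were tested on simulated data. The SE is the log2 fold change divided by the square root of F. TMM moved log2 differences from day 0 to day 11 by -0.49 relative to library totals, and those of roots against day 0 and day 1 by -0.66 and -0.75. Ratios took a pseudocount of 0.5, and exact permutation tests used SciPy 1.17.1. Alternatives were DESeq2 1.42.0, its size factors in edgeR, no filter, other sets of libraries, high-confidence models only, the plant as a block, each plant left out, and the day 0 library of plant 1 or the day 7 library of plant 3 left out. The block with both of those libraries left out was chosen after seeing the data. Named genes were the 3 copies, the 5 most alike in leaves and the 12 nearest high-confidence models. The members and lists were chosen with earlier results of these data known.

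The pairing comes from the series' design text, which says that 3 plants were used, and from their numbers in the library names. Deviations from the group means correlated across genes at -0.13 to 0.21 in 30 pairs of libraries of the same plant (median 0.0039, 4 pairs over 0.1) and at -0.30 to 0.26 in 60 pairs of different plants (2 over 0.1).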

Additional observations from a re-analysis of the deposited data

How the results depend on the processing

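Counts of called copies, out of 3, moved as follows. With the replicate block they were 2 for day 7 against day 0 (0 with the group only), 2 for day 7 against day 1 (1), 2 for day 11 against day 0 (1), 2 for roots against day 0 (1) and 3 for roots against day 1 (2). Those fits called 13.1%, 17.7%, 20.8%, 31.3% and 32% of all genes higher, in the same order. DESeq2 called 1 for day 7 against day 0 and 2 for day 11 against day 0, where it called 17.5% and 24.4% of all genes higher. The count was 2 for day 7 against day 1 without the day 7 library of plant 3, and 2 for day 11 against day 0 without the day 0 library of plant 1. Those fits called 12754 of 65449 and 13831 of 65665 genes higher. The block without both libraries gave 1 for day 7 against day 0 and 2 for day 7 against day 1, day 11 against day 0 and roots against day 0. It called 9290, 12153 and 14068 of 65198 genes higher in these leaf comparisons, and 23017 of 75611 for the roots. Leaving out each plant gave 0 to 1 copies for day 7 against day 1, 0 to 2 for day 11 against day 0, 0 to 2 for roots against day 0 and 1 to 3 for roots against day 1. In the leaf fits, of 63126 to 63955 genes tested, 3103 to 11375 and 7254 to 10675 were called higher. With the roots, of 73351 to 73545 genes, 19623 to 23387 and 19765 to 24377 were called higher. For the summed level, the paired test over plants has the same log2 difference of 1.17 by construction and cannot give an exact p below 0.25.

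Values that were not called changed sign in places. Over the plants left out, the log2 ratio of VRN-A1 to VRN-B1 in later against first leaves ran from -0.118 to 0.566. That of VRN-B1 to VRN-D1 ran from 0.0923 to 0.392 (-0.189 without both libraries) and, in leaves against roots, from -0.127 to 0.386. Log2 fold changes of VRN-A1 over the plants left out ran from -0.168 to 0.0762 for day 1 against day 0 (0.423 without the day 0 library of plant 1, 0.0517 with the block and without both libraries), from -0.0198 to 0.227 for day 11 against day 7 (-0.0124 with the block, -0.0751 without the day 7 library of plant 3) and from -0.354 to 0.0573 for roots against day 7. Those of VRN-D1 ran from -0.488 to -0.191 for day 7 against day 0 (0.177 without the day 0 library of plant 1, 0.491 with the block and without both libraries), from -0.0331 to 1.01 for day 11 against day 0, from -0.207 to 0.439 for roots against upper leaves and from -0.0155 to 1.18 for roots against day 0. The cause of these changes was not tested. Over all genes, day 1 against day 0 gave 813 calls by edgeR, 324 with the block, 310 with the block and without both libraries, 1543 without the day 7 library of plant 3, 1561 in the fit of all 15 libraries, 4576 by DESeq2 and 0, 0 and 115 without plants 1, 2 and 3. Day 7 against day 0 gave 17732, but 8034 in a fit of those groups only and 9419 and 2389 without plants 1 and 2. Without plants 1 and 2, calls fell from 22335 to 9817 and 5634 for day 7 against day 1 and from 13767 to 5149 and 3357 for day 11 against day 7, and without plant 2 from 27855 to 16494 for day 11 against day 0. Counting error weighs most on VRN-D1, with 6 to 109 counts per library.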
